A study of Danio rerio with 11 samples.

Results

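Peaks found only in one-cell zebrafish embryos were defined as peaks of the one-cell list whose interval overlapped, by 1 bp or more, no peak in any of the other 8 lists. Of the 178587 one-cell peaks, 61835 met this rule, which is 34.6% (95% CI 34.4 to 34.8, Wilson). They are called one-cell-only peaks here, and the remaining 116752 are called the other one-cell peaks. The members were selected on presence or absence of peaks in the 9 lists, so every comparison of one-cell-only with other one-cell peaks is a description and carries no test.

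The peaks come from MBD-seq, in which sonicated genomic DNA bound by the methyl-CpG binding domain is pulled out and sequenced, so that a peak marks a stretch rich in methylated CpGs. All samples came from Tübingen/AB fish. The lists compared were those of sperm, mid-blastula transition (mbt) embryos, untreated embryos 3 days post-fertilization (3dpf), 3dpf embryos given 400 µM methotrexate at the one-cell stage (MTX-3dpf), and eye, brain, heart and liver of adult females, and each sample was pooled from several or many animals. The one-cell embryos were untreated and pooled in large number, and their library was sequenced in lane 5 with those of sperm and mbt. Per the labels, the control for these 3 libraries was the methylation-poor flow-through of adult brain from lane 5, not of embryos. Each condition had 1 enriched library (brain had both lanes 4 and 5 in 1 list), so nothing below has a replicate check. Intervals given for shares cover counting error only.

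At fertilization the zebrafish embryo carries a paternal genome, packaged and methylated in sperm, and a maternal genome with the methylation of the egg. From the one-cell stage to the midblastula stage the embryo divides rapidly with little transcription of its own, and in zebrafish the paternal pattern is known to be largely kept while the maternal pattern is reset towards it. DNA methyltransferase 1 copies methylation to the new strand at each division, and the DNA methyltransferase 3 enzymes place it anew. Of the 9 conditions, the one-cell embryo is the closest in time to the egg. An egg library was not analysed here, and the lists do not tell the parental genomes apart.

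The one-cell-only peaks were the end of a graded series. Of the one-cell peaks, 27634 overlapped a peak in just 1 other list, 15468 in 2, 11058 in 3, 13371 in 4, 13017 in 5, 4960 in 6, 5608 in 7 and 25636 in all 8. The counts were thus highest for none and lowest for 6 or 7 lists, and rose again for all 8. Where a single other list held the peak, that list was mbt in 20900 cases, 75.6% of the 27634. It was 3dpf in 2549 cases, sperm in 2382, MTX-3dpf in 852 and brain in 780, and eye, heart or liver in at most 67 each. The next stage of development was therefore by far the most frequent single partner, and the mbt list was also the longest of the 8 with 122477 peaks. The mbt library also shared its lane and control with one-cell, as the sperm library did. Stage, list length, lane and control cannot be told apart in this count.

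One-cell-only peaks had low scores within their list. The score is a value that MACS2 gave each peak, in a unit that is not named. It was used only to rank peaks within a list. By bisulfite sequencing of regions in later-stage embryos, the paper found this score unrelated to how much CpG methylation a region had. A low or high score is therefore not read here as weak or strong methylation, either for one-cell-only peaks or for their neighbours. The median one-cell-only peak stood at the percentile 25.01 of the one-cell list, with quartiles at 11.8 and 42.0. The median of the other one-cell peaks stood at 65.0, with quartiles at 42.5 and 82.7. The ranges overlapped, since one-cell-only peaks reached up to a score of 339.79 and other one-cell peaks down to 1.34. Scores at or below the list median were held by 83.5% of the one-cell-only and 32.3% of the other one-cell peaks. The percentile rose with each further list that held the peak, from a median of 42.9 for 1 other list to 67.0 for 4 and 85.8 for all 8.

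The list was next divided by score into 10 parts of nearly equal size. In the lowest score part, with scores up to 8.6, 12926 of 17465 peaks were one-cell-only, or 74.0% (95% CI 73.4 to 74.7). This fell to 49.1% in the fourth part, 25.6% in the sixth and 7.61% in the eighth. It did not keep falling to the end of the list, because it was 4.48% in the ninth part (95% CI 4.19 to 4.80) and 5.35% in the highest (95% CI 5.03 to 5.69). The highest score part, with scores from 74.35, held 955 one-cell-only peaks.

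**Figure D1:**
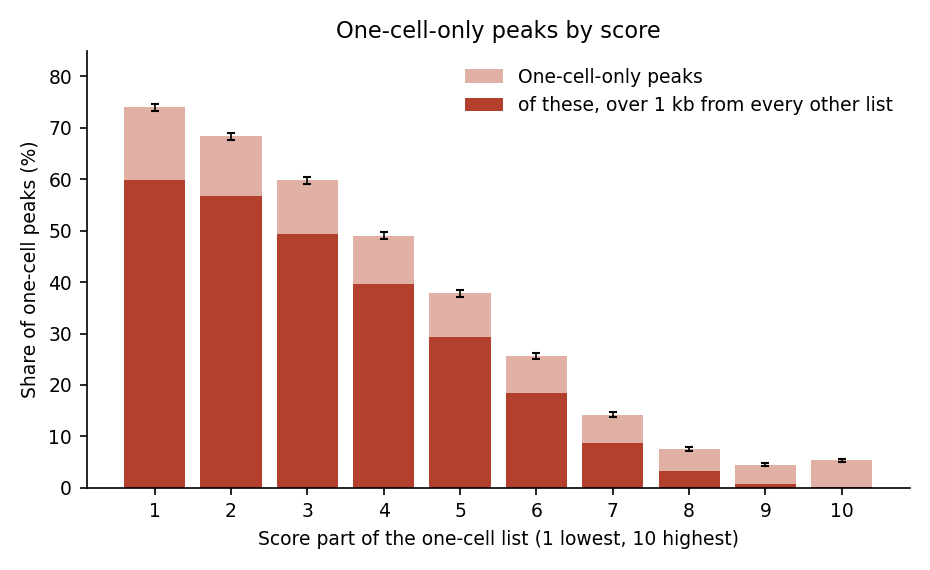
Share of one-cell peaks (%) that were one-cell-only in each of 10 parts of the one-cell list by score, with Wilson 95% intervals as bars around the top of each column. The dark part of a column is the share that lay over 1 kb from every peak of the other lists, and it falls from 59.8% in the lowest score part to 0.140% in the highest.

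The one-cell-only peaks of high score lay beside peaks of the other lists, whereas those of low score mostly did not. Distances were counted as the bases between the edges of intervals. In the lowest score part, the median distance from a one-cell-only peak to the nearest peak of any other list was 2882 bp, with quartiles of 1268 and 6220 bp. It stayed between 2299 and 3120 bp up to the sixth part, and was 558 bp in the eighth, 220 bp in the ninth and 190 bp in the highest (quartiles 67.5 and 319 bp). Of the 955 one-cell-only peaks in the highest score part, 865 (90.6%) had a peak of another list within 500 bp and 930 (97.4%) had one within 1 kb. The remaining 25 lay farther away. In the lowest score part, 19.2% had such a peak within 1 kb.

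**Figure D2:**
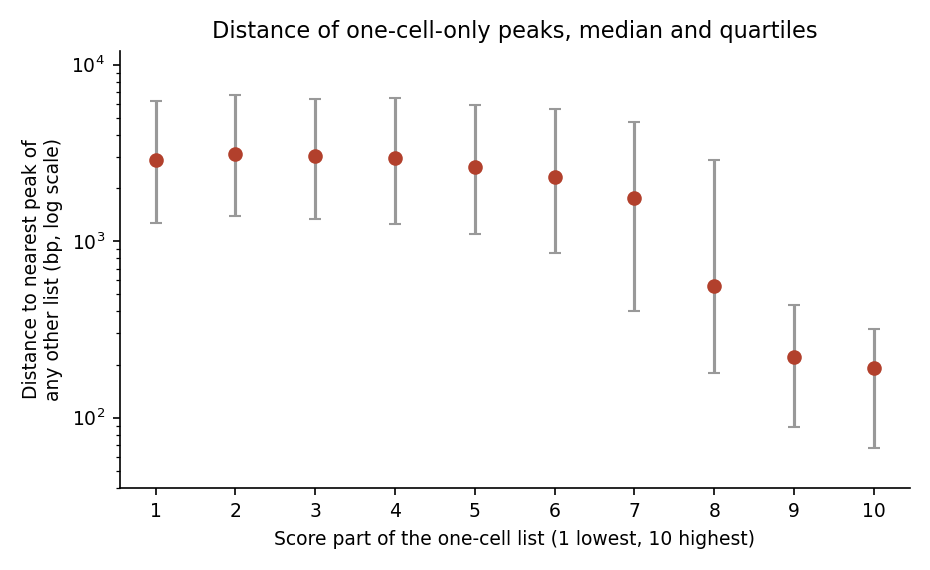
Distance in bp (log scale) from one-cell-only peaks to the nearest peak of any of the other 8 lists, by part of the one-cell list ordered by score. Points are medians and bars run from the lower to the upper quartile, and the median falls from 2299 bp in the sixth part to 190 bp in the highest.

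In the highest score part these neighbours were shared between lists and ranked high by score. All 8 other lists had a peak within 1 kb of 724 of the 955 one-cell-only peaks, or 75.8%, against 2.28% of those in the lowest score part. Within 1 kb, the nearest mbt peak stood at a median percentile of 93.6 of its own list, the nearest sperm peak at 92.6 and the nearest 3dpf peak at 90.6. In brain this median was 88.5, and in MTX-3dpf, eye, heart and liver it lay between 83.6 and 86.4. The neighbours of the lowest score part ranked much lower, with medians between 31.3 in mbt and 44.6 in brain. The neighbours of the highest score part were mostly not one-cell peaks themselves. Of the 853 nearest mbt peaks, 851 (99.8%) overlapped no one-cell peak, and in every list this share was between 99.6% and 99.9%. In mbt it was 42.0% for the lowest score part and 18.9% for the whole list. By the rule, such a neighbour cannot overlap the one-cell-only peak beside it. Within the one-cell list itself, the closest pair of peaks was 332 bp apart. Only 13.8% of all one-cell-only peaks had another one-cell peak within 1 kb. Over all one-cell-only peaks, 63.2% of the nearest mbt peaks within 1 kb overlapped no one-cell peak. Spacing was not taken for the highest score part alone. The high share may follow in part from the rule and the spacing, which was not tested. Neighbours of the lowest score part lay farther away, so the shares are not like for like. Each interval was set to 100 bp on both sides of a peak center, and peak widths before that step were not analysed here, so the part of a moved center within 1 broad methylated stretch was not tested.

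Individual peaks show the same arrangement. The one-cell-only peak with the highest score, 339.79, lay on the unplaced scaffold Zv9_NA250 from 14403 to 14603 (Zv9, as are all positions here). Peaks of all 8 other lists lay between 241 bp (brain) and 268 bp (heart) from it. The next highest score was 184.96, at chr15:5463030-5463230, where the distances ran from 479 bp in 3dpf to 609 bp in brain. At chr17:673741-673941, with a score of 159.2, they ran from 202 bp in MTX-3dpf to 278 bp in mbt. The peak at 15924 to 16124 of the scaffold Zv9_NA889 (158.19) had distances from 443 bp in 3dpf to 702 bp in MTX-3dpf. The exception among the 5 highest was at 49433 to 49633 of Zv9_scaffold3524. Its score was 178.51, and its nearest neighbours were an mbt peak 3979 bp and a 3dpf peak 4064 bp away, with every other list beyond 5 kb. The 4 others thus had peaks of all 8 lists within 1 kb, and this one had none.

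At the limit of the rule, members and non-members had like scores. The 668 one-cell-only peaks that lay 0 to 19 bp from a peak of another list had a median percentile of 50.9 (quartiles 25.01 and 74.3). The 788 other one-cell peaks whose largest overlap was 1 to 20 bp had a median percentile of 49.4 (quartiles 26.1 and 74.5). The scores thus showed no step at the limit of the rule, and few peaks lay near it.

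Most one-cell-only peaks were not near misses. The median distance to the nearest peak of any other list was 2686 bp, with quartiles of 1081 and 6071 bp. Beyond 500 bp lay 54590 of them, or 88.3%, and beyond 1 kb lay 47498, or 76.8% and 26.6% of the whole one-cell list. Beyond 10 kb lay 7839 (12.7%) and beyond 50 kb 112. Those over 1 kb away had a median percentile of 23.3 by score, and 88.3% of them scored at or below the list median. Each of these counts includes 39 one-cell-only peaks on 29 scaffolds on which no other list had any peak, and which have no measured distance.

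Of the other lists as deposited, mbt came closest. The nearest mbt peak lay at a median of 3263 bp, the nearest sperm peak at 4551 bp and the nearest 3dpf peak at 4610 bp. For MTX-3dpf the median was 5242 bp and for brain 5901 bp. The peaks of liver, heart and eye were farthest, with medians of 9402, 9405 and 10277 bp. A peak within 1 kb was found for 18.8% of the one-cell-only peaks in mbt, for 12.8% in sperm and for 6.48% in eye. The mbt list held the nearest peak of all in 38.2% of cases, 3dpf in 14.5% and sperm in 14.1%. This order nearly follows the length of the lists, from mbt to eye, except that sperm, with 96505 peaks, came closer than 3dpf with 101868. A longer list has nearer peaks at any place, so each list was also limited to its 45785 highest scores, the length of the eye list, in a comparison added after the data were seen. The median distances then lay between 9818 bp for mbt and 10523 bp for MTX-3dpf, with 9886 bp for sperm and 10462 bp for 3dpf. With only these peaks kept, the 8 medians were nearly the same. The cut left the eye list whole and took the lower-scoring peaks from the others. The nearest mbt peaks within 1 kb of one-cell-only peaks had a median percentile of 40.8, so many of them were removed. The part of list length in the order as deposited was therefore not tested.

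**Figure D3:**
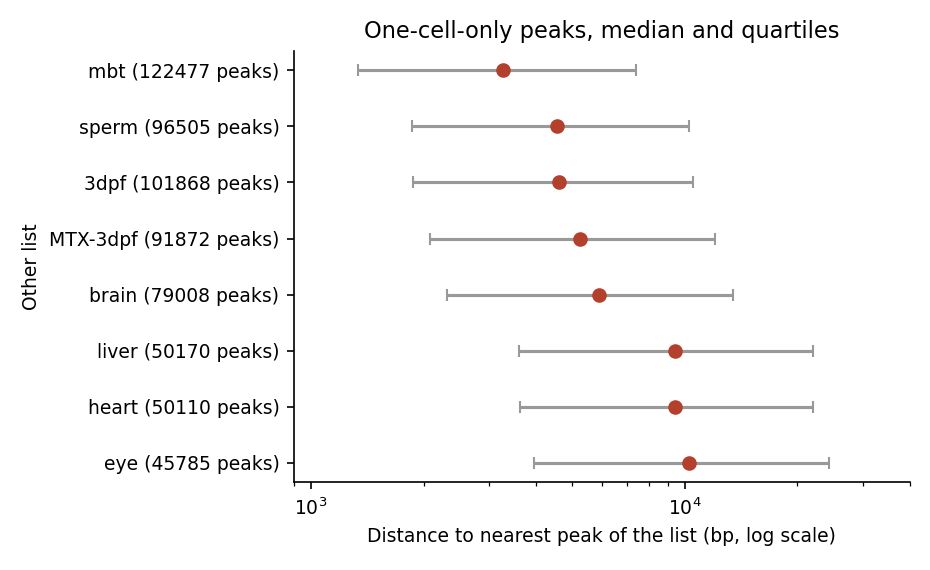
Distance in bp (log scale) from the one-cell-only peaks to the nearest peak of each other list, with the number of peaks of that list. Points are medians and bars run from the lower to the upper quartile, with mbt nearest at 3263 bp and eye farthest at 10277 bp.

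The one-cell-only peaks farthest from any other list stood in long stretches in which none of the other 8 conditions had a peak. The farthest was at chr12:32165214-32165414, 94251 bp from the nearest peak of another list, which was in 3dpf. Its score was 5.18, the percentile 2.39 of the list. Next came chr3:43848141-43848341 at 84801 bp, chr23:36117269-36117469 at 84738 bp and chr9:44048823-44049023 at 84638 bp, with percentiles of 28.2, 11.7 and 17.4. The fifth, at chr8:19989176-19989376, lay 82958 bp from a brain peak and had a percentile of 49.7. All 5 thus ranked at or below the middle of the one-cell list.

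Compared with the one-cell-only peaks, the peaks found only in mbt and only in brain by the same rule were fewer and closer to other lists. For peaks found only in any list but one-cell, the other lists included the one-cell list, the longest with 178587 peaks. For one-cell-only peaks they did not. A longer list has nearer peaks at any place, so lower counts and shorter distances may follow in part from this. The mbt-only peaks numbered 8537, which is 6.97% of their list, with a median percentile of 11.8 and a median distance of 662 bp. Within 1 kb of another list lay 61.8% of them, against 23.2% of the one-cell-only peaks. The 7651 brain-only peaks (9.68%) were more like the one-cell-only ones, with a median distance of 2367 bp and 32.8% within 1 kb. Their scores were not low in the same way, because their median percentile was 39.3 and they made up 10.7% of the highest score part of the brain list. In that part, 66.3% of the brain-only peaks had a peak of another list within 1 kb, against 97.4% of the one-cell-only peaks in theirs. Brain was the exception here, since this value was 96.7% for mbt, 95.8% for sperm and between 94.1% and 100% for the other 5 lists' own peaks. Those values rest on few peaks, from 17 in eye to 119 in sperm, against 846 in brain and 955 in one-cell. Low scores were not particular to the one-cell-only peaks. The median percentile was 24.6 for peaks found only in MTX-3dpf. For those of sperm, 3dpf, eye, heart and liver it lay between 8.52 in eye and 13.7 in liver. The lists differ in length and depth, and with 1 library each these differences were not tested.

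The spacing of peaks within the one-cell list was nearly the same for both sets. The nearest one-cell peak of either kind lay at a median of 2562 bp from a one-cell-only peak (quartiles 1382 and 5066 bp) and 2442 bp from another one-cell peak (quartiles 1383 and 4662 bp). Within 1 kb of a further one-cell peak were 13.8% of the one-cell-only and 13.6% of the other one-cell peaks, and 8.23% and 6.90% stood over 10 kb from any. On the 25 chromosomes, the next one-cell peak along the sequence was one-cell-only in 36.5% of cases after a one-cell-only peak and in 33.8% after another one-cell peak. The members therefore stood among the other one-cell peaks rather than in blocks of their own.

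Runs of one-cell-only peaks with no peak of any list between them were short. Of the 61835 peaks, 31050 (50.2%) stood singly, 17620 in pairs and 7872 in runs of 3. Runs of 5 or more numbered 385 and held 2113 peaks. The longest had 10 peaks, and there were 3 of them. They spanned 122983 bp at chr18:2912370-3035352, 98714 bp at chr8:32652170-32750883 and 33365 bp at chr4:40198344-40231708. Their median scores of 13.2, 12.2 and 15.5 were close to the 14.2 of all one-cell-only peaks.

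On the 25 chromosomes there were 59727 one-cell-only peaks. Their number rose with the length of the chromosome (Pearson's r = 0.90, Spearman's rho = 0.82, n = 25 chromosomes of 1 library, given as a description), where length was the largest peak end over the 9 lists. Per Mb there were 44.4 ± 3.60 of them (SD over 25 chromosomes), from 34.8 on chromosome 4 to 52.4 on chromosome 25. Other one-cell peaks numbered 83.5 ± 8.56 per Mb. The relative spread of both was close, 8.10% and 10.3%. No chromosome was without one-cell-only peaks, and none was dominated by them.

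The share of one-cell peaks that were one-cell-only varied little between chromosomes. It was lowest on chromosome 22, with 2148 of 6546 peaks or 32.8% (95% CI 31.7 to 34.0, Wilson), and highest on chromosome 24, with 2003 of 5397 or 37.1% (95% CI 35.8 to 38.4). The median over the chromosomes was 34.4%. Chromosome 22 also had the most other one-cell peaks per Mb, 104, but was second to chromosome 25 in one-cell-only peaks with 50.8. Across the chromosomes the share was lower where other one-cell peaks were denser (r = -0.61, rho = -0.64, n = 25, a description in which the density also enters the share). On chromosome 4, the share was 41.0% (95% CI 39.0 to 43.1) before 25 Mb and 31.4% (95% CI 30.0 to 32.9) beyond it. The one-cell-only peaks per Mb were alike in both parts, 35.5 and 34.3, and it was the other one-cell peaks that differed, with 51.0 and 74.8 per Mb. The unplaced scaffolds had 2107 one-cell-only peaks among 6719, or 31.4% (95% CI 30.3 to 32.5).

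The share was highest in the middle of the chromosomes. When each chromosome was divided into 10 parts of equal length, the share was 32.1% in the first part (95% CI 31.5 to 32.6, Wilson), 39.0% in the sixth (95% CI 38.2 to 39.9) and 31.7% in the last (95% CI 31.1 to 32.2). Between these parts it rose and fell steadily. In parts 4 to 7 the share was 37.6% ± 2.03 (SD over 25 chromosomes), and in parts 1, 2, 9 and 10 it was 32.9% ± 1.57. The middle was higher on 24 of the 25 chromosomes, by 4.66 ± 2.65 percentage points on average and by up to 8.61 on chromosome 3. Chromosome 4 was the exception, at -0.34. In number, both kinds of peak were most frequent near the ends, with 26.6% of the one-cell-only and 30.3% of the other one-cell peaks in the first and last parts. Among peaks at or below the median score, the share lay between 56.8% in the eighth part and 60.4% in the third. It was 59.7% in the sixth, and it had no single maximum in the middle. Among peaks above the median score, the share was highest in the fifth and sixth parts, at 13.3% in both. There it was 10.7% in the first part, 10.8% in the seventh and 11.1% in the last.

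**Figure D4:**
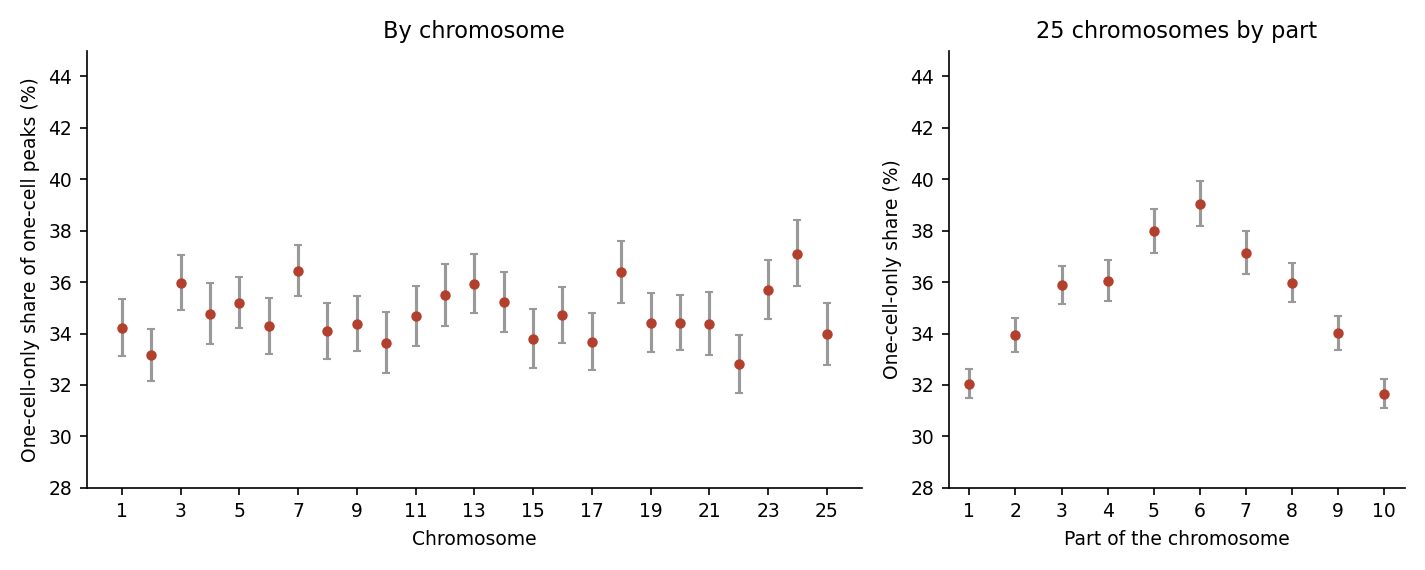
Left, share of one-cell peaks (%) that were one-cell-only on each of the 25 chromosomes, and right, the same share in 10 equal parts of all chromosomes, with Wilson 95% intervals as bars. Both vertical axes start at 28%, and the share lies between 32.8% and 37.1% by chromosome and between 31.7% and 39.0% by part.

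In windows of 1 Mb the one-cell-only peaks were everywhere and more even than the other one-cell peaks. The 1344 full windows of the 25 chromosomes held between 11 and 106 one-cell-only peaks, with a median of 42 and quartiles of 33 and 54. Other one-cell peaks numbered 18 to 212, with a median of 74 and quartiles of 54 and 106. The coefficient of variation across windows was 32.2% for one-cell-only and 42.6% for other one-cell peaks. The set with fewer peaks, in which counting scatter weighs more, was thus the less variable. The order was the same among peaks at or below the median score, with 30.8% and 38.9%. There the one-cell-only peaks were the larger set, with a mean of 36.6 per window against 26.5. Counting scatter thus weighs more in the other one-cell peaks of that score range. Other one-cell peaks overlap the other lists by rule, and the coefficient for those lists ran from 44.3% in mbt to 56.5% in eye. The lower spread of the one-cell-only peaks may thus follow in part from the rule. The one-cell-only peaks over 1 kb from other lists were the most even, with 29.4%. This limit removes members beside peaks of other lists, so the lower spread may follow in part from it. No window lacked one-cell-only peaks.

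Windows rich in other one-cell peaks were also rich in one-cell-only peaks (r = 0.79, rho = 0.79, n = 1344 windows, which share 1 library, its depth and the base composition of the window). The r with all one-cell-only peaks was 0.78 for other one-cell peaks above the median score (rho = 0.79). For those at or below it, r was 0.51 (rho = 0.54). With the windows in 4 groups by their other one-cell peaks, the mean number of one-cell-only peaks per window was 31.5 ± 7.48 (SD over windows) in the lowest group and 59.5 ± 10.9 in the highest, 1.89 times as many. Other one-cell peaks differed 2.97 times between the same groups, from 44.6 to 133. The share of one-cell-only peaks was 41.4% (95% CI 40.8 to 42.0, Wilson) in the lowest group and 31.0% (95% CI 30.6 to 31.4) in the highest. Among peaks at or below the median score it was 61.3% and 56.8%. Because the windows were grouped by the other one-cell peaks, which also enter the share, a larger spread of these and a falling share follow in part from the grouping. The counts of the other lists followed the one-cell-only counts less closely than those of the other one-cell peaks, with r between 0.62 for brain and 0.79 for mbt against 0.87 and 0.99. The other one-cell peaks overlap these lists by definition.

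**Figure D5:**
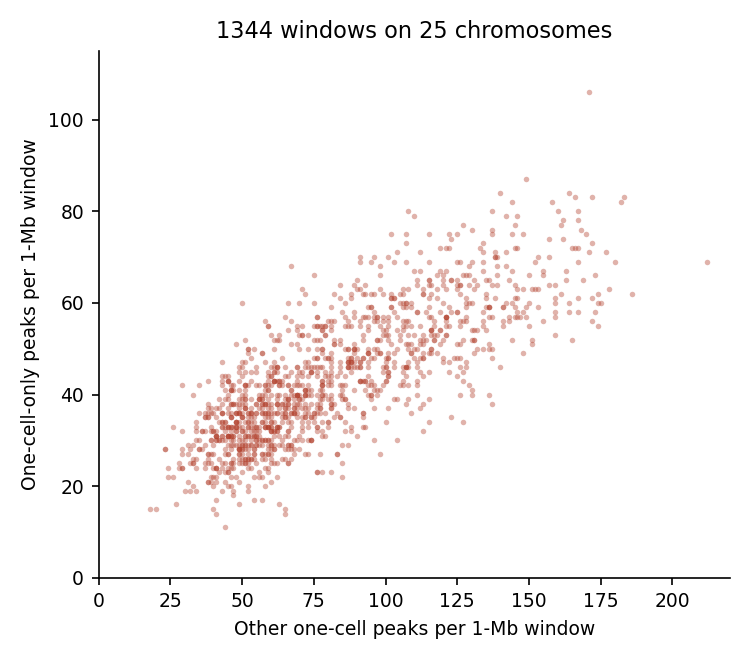
One-cell-only peaks against other one-cell peaks in each of the 1344 full windows of 1 Mb on the 25 chromosomes, both as numbers of peaks per window. Each point is a window, and the one-cell-only peaks run from 11 to 106 where the other one-cell peaks run from 18 to 212.

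The window with the most one-cell-only peaks was chr23:2000001-3000000, with 106 beside 171 other one-cell peaks, and 171 peaks in mbt, 135 in sperm and 72 in eye. Next were chr20:3000001-4000000 with 87 and chr2:59000001-60000000 with 84. Their shares were 38.3%, 36.9% and 37.5%. In all 3 windows every other list also had more peaks than in the upper quartile of its windows. Among the 1337 windows with at least 50 one-cell peaks, the share had a median of 35.4% and exceeded 50% in 15. It was highest at chr23:24000001-25000000, where 42 of 71 one-cell peaks or 59.2% were one-cell-only (95% CI 47.5 to 69.8, Wilson). In that window sperm had 20 peaks, mbt 36, 3dpf 21, MTX-3dpf 16 and brain 22, and eye, heart and liver had 8 to 10. The next were chr20:27000001-28000000 with 33 of 59 peaks and chr2:31000001-32000000 with 28 of 51. In these 3 windows every other list had fewer peaks than in the lower quartile of its windows. A peak is one-cell-only where the other lists have none, so low counts of these lists follow in part from the choice of windows.

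The lowest share was at chr4:48000001-49000000, where 14 of 79 one-cell peaks or 17.7% were one-cell-only (95% CI 10.9 to 27.6, Wilson). Brain had 84 peaks in that window, more than any other list, and mbt had 64. At chr8:36000001-37000000 it was 15 of 80 peaks, with 68 peaks in 3dpf and 65 in brain, and at chr1:37000001-38000000 it was 11 of 55. With so few peaks per window the intervals are wide, and the windows named here were chosen as the extremes of 1337. The peaks of the other lists enter the share through the rule, so high counts of them here follow in part from that choice.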

How the data were processed

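The deposited files were 9 peak lists on the Zv9 build, 1 per condition. The authors aligned paired reads with BWA 0.5.8c, kept properly paired reads with mapping quality above 5, called peaks with MACS2 2.0.10.20120703 and set each interval to 100 bp on both sides of the peak center. The score column is the MACS2 score as deposited by the authors, and it was used only within a list. Read depth is not in the lists, and peak number was not adjusted for it. The paper's supplement gives fewer properly paired unique reads for one-cell than for every other enriched library except eye.

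Overlaps, distances and windows came from pandas 2.3.3 and NumPy 2.4.6 under Python 3.11.15, and were tested on simulated lists with known answers. Wilson intervals came from SciPy 1.17.1. Peaks were assigned to 1-Mb windows by center. Chromosomes, windows, peaks and runs were named as extremes by fixed rules (most, highest, lowest, farthest, longest). The members, rules and comparisons were chosen with earlier results of these data known. The division by chromosome part, the division at the median score and the neighbours' ranks were added after the data were seen. Alternatives were other overlaps, score limits, equal list lengths, chromosomes alone, window sizes and lists left out. Zv9 sequence and genes were not used here.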

Additional observations from a re-analysis of the deposited data

How the results depend on the processing

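With 1 library per condition there is no replicate to leave out, and no paired analysis was possible because no condition has replicates. The 61835 one-cell-only peaks became 68319 when shared peaks had to overlap by 100 bp and 50423 when centers within 1000 bp counted as shared. With lists limited to scores not below their median, there were 37825 among 89338 one-cell peaks, or 42.3% in place of 34.6%. With every list cut to its 45785 highest-scoring peaks there were 12390, or 27.1%. Leaving out each other list in turn gave 61876 to 82735 peaks, a median percentile by score of 25.01 to 29.3, a median distance of 2683 to 3642 bp and an r across windows of 0.79 to 0.80. The highest count and distance came without mbt. The median percentile by score was 26.6 with an overlap of 100 bp, 23.3 with centers within 1000 bp, 29.4 with the median as score limit and 29.3 at equal list lengths, in the last cases within shortened lists. The median distance was 2263, 3606, 5095 and 4290.5 bp in the same order. The r between both kinds of peak across windows was 0.82, 0.66, 0.83 and 0.77 in that order, and 0.70 with windows of 500 kb and 0.86 with windows of 2 Mb. On the 25 chromosomes alone all values stayed close, with 59727 peaks. The cause of these shifts was not tested. The widths, reads and sequence behind the peaks limit what the lists can show.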

Other observations

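The mitochondrial genome, which eggs carry in many copies, held 2 peaks over the 9 lists. The one-cell peak, from 2281 to 2481 of chrM, was one-cell-only and had a score of 63.57, the percentile 84.4 of its list. The other was an mbt peak from 10338 to 10538, with a score of 39.69 at the percentile 64.8 of the mbt list. The 7 remaining lists had none there, and any part of copy number in these peaks was not tested.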
